A study of Mus musculus with 22 samples.

Results

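The endothelial nuclei were the 96 nuclei that the authors' cell type column names as endothelial, of 24305 annotated nuclei from the mouse hypothalamus. A further 660 nuclei were marked in the same column as filtered and were left out. The nuclei came from a single-nucleus RNA-seq (snRNA-seq) study of fibroblast growth factor 1 (FGF1), a peptide that was given into the brain ventricle (icv). All mice were male ob/ob mice, which lack leptin, and were 11 weeks old. Each received a single icv injection of either 3 µg of FGF1 or PBS vehicle, and each vehicle mouse was given only as much food as FGF1 mice ate (pair-fed, PF). Hypothalamic punches were taken on Day 1 from 3 FGF1 and 3 vehicle mice and on Day 5 from 2 FGF1 and 2 vehicle mice, and each library held 1 mouse. A separate cohort of 6 FGF1 and 6 vehicle ob/ob mice, whose mediobasal hypothalamus was dissociated into whole cells on Day 5 (scRNA-seq), is used below only beside the nuclei. The comparison asked which transcripts of the hypothalamic vasculature differed between FGF1 and pair-fed vehicle mice, 1 and 5 days after the injection.

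Endothelial cells line the vessels of the brain. In most of the brain they form the blood-brain barrier: tight junctions seal the cells to each other, transporters carry glucose, amino acids, hormones and lipids across them, and efflux pumps return foreign molecules to the blood. They share a basement membrane with pericytes, the contractile mural cells that wrap capillaries. In the median eminence and other circumventricular organs the endothelium is fenestrated instead, and blood-borne signals pass more freely.

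The endothelial nuclei were few and well covered. Each mouse gave between 2 and 20 of them. On Day 1 there were 13, 19 and 7 in the FGF1 mice and 6, 7 and 8 in the vehicle mice. On Day 5 there were 9 and 20 in the FGF1 mice (replicates 37 and 45) and 2 and 5 in the vehicle mice (replicates 28 and 38). A nucleus held 1358 to 9040 unique transcripts (UMIs), with a median of 3577, against a median of 2692 in the other annotated nuclei, and the 96 together held 401743 UMIs of 14783 genes. Of 24645 barcode sequences, 318 occurred in more than 1 library. Among the endothelial nuclei 4 carried such a barcode, and 0 barcodes were shared by 2 endothelial nuclei.

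The label was checked first against its markers. Flt1, the decoy receptor for VEGF, and Slco1a4, a transporter of organic anions, had a UMI in all 96 nuclei, and Cldn5, the main claudin of the barrier's tight junctions, in 91.7%. Among all other annotated nuclei the same genes were seen in 2.45%, 0.48% and 0.13%. All 9 endothelial markers that the table holds were present, and every nucleus had at least 4 of them (median 8). Summed over the 9, the pooled level was 134.7 per 10000 UMIs in endothelial nuclei and 0.545 in all other nuclei. By mouse the summed level ran from 116 to 154 per 10000, so no library lacked the endothelial signal.

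**Figure D1:**
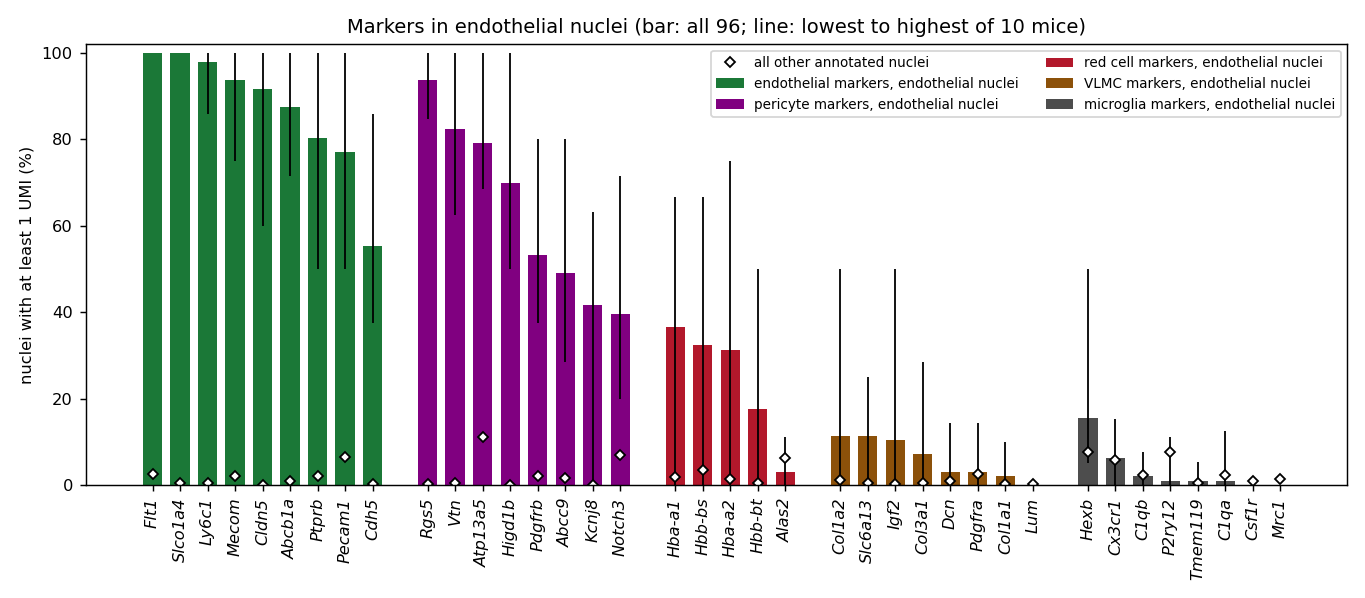
Percentage of nuclei with at least 1 UMI (y axis) for the markers of 5 cell types (x axis). Bars give all 96 endothelial nuclei, vertical lines the lowest to highest of the 10 mice, and open diamonds all other annotated nuclei. The endothelial markers reach 55.2 to 100%, and the pericyte markers 39.6 to 93.8%, in the same nuclei.

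Markers of pericytes were found in the same nuclei. Rgs5, a regulator of G protein signalling that marks mural cells, had a UMI in 93.75% of the endothelial nuclei and in 0.28% of the others. Vtn, which encodes vitronectin, was seen in 82.3% and Higd1b in 69.8%, and Kcnj8, the pore subunit of the pericyte ATP-sensitive potassium channel, in 41.7%. The 8 pericyte markers together made up 46.2 per 10000 UMIs in endothelial nuclei and 0.791 in all other nuclei. In 80 of the 96 nuclei (83.3%) at least 3 of the 8 were detected, against 0.244% of the other annotated nuclei, and all 80 also had at least 3 endothelial markers. Only 1 endothelial nucleus had no pericyte UMI. No nucleus of the group had 3 or more pericyte markers with fewer than 3 endothelial markers, and 53 of the other annotated nuclei did. The group is therefore one of nuclei with endothelial RNA in every member and pericyte RNA in nearly all. It is called endothelial here, after its label.

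The endothelial and pericyte signals did not separate the nuclei into 2 sets. Across the 96 nuclei the Spearman correlation between their summed levels was 0.20, a description over nuclei that share libraries and a total. Per mouse, the pericyte markers ran from 43.6 to 49.8 per 10000 UMIs in the 5 FGF1 mice. They were 30.8, 51.9 and 32.3 in the Day 1 vehicle mice and 59.2 and 67.3 in the Day 5 vehicle mice. With the days pooled the FGF1 mice lay inside the range of the vehicle mice. On Day 5 alone, where the FGF1 mice were at 44.7 and 43.6, both were below both vehicle mice, and the part of this in the Day 5 values of single genes was not tested. In the whole-cell cohort, which was clustered by the authors, the cells of cluster 3 carried the same endothelial markers (median of 5 detected per cell, 4113 cells), with a median of 1 pericyte marker, and 32.3% had at least 3 of both. Cluster 15 (359 cells) had a median of 5 pericyte and 0 endothelial markers, with 10.6% having at least 3 of both. The cells held fewer UMIs, with medians of 1330 in cluster 3 and 1108 in cluster 15 against 3577 in the nuclei. Numbers of detected markers therefore cannot be compared between cells and nuclei. Scaled to the same total of UMIs (CPM), Rgs5 was at 1549 in cluster 3 and 1486 in the nuclei. The other pericyte markers were lower in cluster 3, as with Higd1b (403 against 473 CPM) and Vtn (790 against 1242 CPM). Most endothelial markers were lower there too, as with Slco1a4 (1275 against 3500 CPM) and Flt1 (2038 against 2522 CPM). Cldn5, Cdh5 and Ptprb were higher in cluster 3. Introns were counted in the nuclei and not in the cells, and the part of this in the CPM was not tested.

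**Figure D2:**
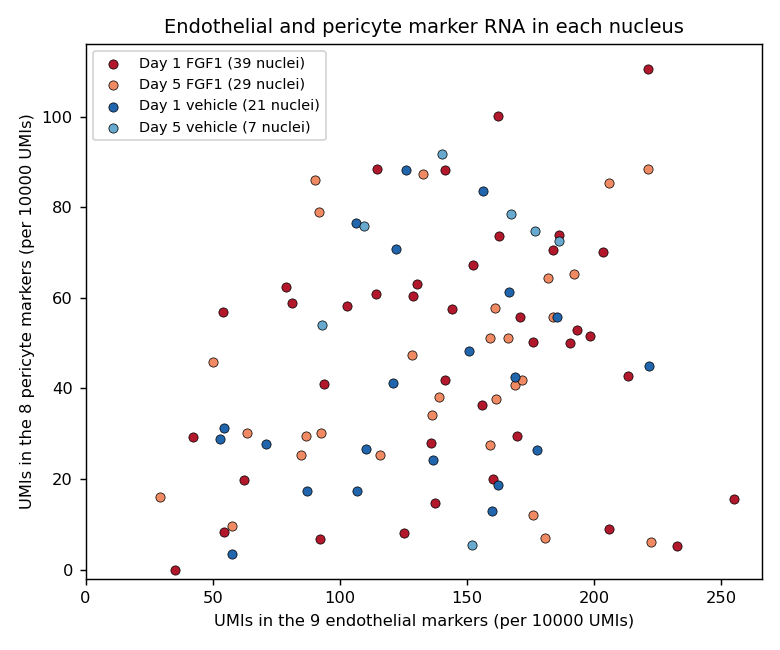
Each point is 1 of the 96 endothelial nuclei, with the summed UMIs of the 9 endothelial markers (x axis) and of the 8 pericyte markers (y axis), both per 10000 UMIs of that nucleus, coloured by day and treatment. Pericyte RNA is present in nuclei of all 4 groups and over the whole range of the endothelial signal.

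Markers of other cell types were found in these nuclei as well. Haemoglobin and other red cell transcripts pooled to 42.5 per 10000 UMIs, but 51 of the nuclei had none, 9 had over 1% of their UMIs in them, and 1 nucleus reached 2022 per 10000. Per mouse the red cell sum ran from 0.279 to 204 per 10000 in the FGF1 mice and from 0 to 140 in the vehicle mice. The 8 astrocyte markers pooled to 15.5 per 10000 UMIs, above the 8.79 of all other nuclei and below the 82.8 of the nuclei labelled astrocyte, and 87 of the 96 nuclei had a UMI in them. By mouse the astrocyte sum ran from 4.74 to 23.7 per 10000 with FGF1 and from 5.82 to 25.5 with vehicle, and on Day 1 every FGF1 mouse was below every vehicle mouse. The 4 neuron markers were each seen in 9.375 to 79.2% of the nuclei, the highest being Meg3. They pooled to 24.2 per 10000, against 160 in all other nuclei, and ran from 8.13 to 42.4 in the FGF1 mice and from 2.21 to 53.3 in the vehicle mice. The group means of the neuron markers were 24.4 with FGF1 and 23.5 per 10000 with vehicle (exact two-sided permutation test within days, p = 0.967). Smooth muscle markers pooled to 7.47 per 10000, against 0.193 in all other nuclei. Of these, Myl9 was in 71.9% of the nuclei against 0.694% of the others, and Mylk in 32.3% against 3.98%. Myh11, Tagln and Acta2 were in 7.29%, 3.125% and 2.08%, and Cnn1 had 0 UMIs. Markers of vascular and leptomeningeal cells (VLMC) pooled to 1.52, against 0.298 in all other nuclei, with Lum at 0. Microglial markers pooled to 0.747, against 1.02, with Csf1r and Mrc1 at 0.

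The genes with the highest levels over all other nuclei pooled came from several layers of endothelial biology. The 25 highest ratios of pooled level over all other nuclei, among genes with a UMI in at least 20% of the endothelial nuclei, ran from 3215 down to 373. They describe the label and are not a test. They included the barrier genes Cldn5 and Slco1a4, the amino acid transporter Slc38a5, the organic anion transporter Slc22a8, the surface proteins Ly6a, Ly6c1, Robo4, Cd93 and Adgrl4, the BMP receptor Acvrl1, and the transcription factors Foxf2 and Klf2. Pericyte markers made up 4 of the 25 (Rgs5, Higd1b, Kcnj8 and Vtn). In 11 of the 25 all 10 mice had a UMI. Against the VLMC nuclei alone the gap was smaller for some of the 25. Slc22a8 was at 256 CPM against 72.2 CPM in VLMC nuclei, and Vtn at 1242 against 286 CPM. Others, such as Higd1b, Grap and Kcnj8, had 0 CPM in VLMC nuclei. The gene with the highest ratio, Scgb3a1, was seen in 3 mice only, and is described with the treatment below. In all, 3695 genes reached 20% of the nuclei, and 367 of them were at least 10 times as high as in the other nuclei.

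Of 20 junction genes, 14 had a UMI in at least 20% of the nuclei. The adhesion molecule Esam was found in 77.1% (460 CPM pooled, where CPM scales each sum to the same total of UMIs), the sialomucin Emcn in 75%, Tjp1, a scaffold of tight junctions, in 90.6%, and Ocln, which encodes occludin, in 51%. Among all other annotated nuclei these genes were seen in 0.442%, 1.67%, 57.2% and 1.16%, so that Tjp1 was common elsewhere too. Ocln stayed between 140 and 351 CPM in all 10 mice. Cgn and Cldn1 had 0 UMIs in the 96 nuclei, which allows a share of nuclei with a UMI of up to 3.125% and says nothing of nuclei that express the gene below detection.

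Transporters were the best covered class, with 28 of 30 genes seen in at least 20% of the nuclei and 20 at least 10 times as high as elsewhere. Slc2a1, the glucose transporter of the barrier, was in 97.9% and ranged from 977 to 1877 CPM across mice. The thyroid hormone transporter Slco1c1 was in 94.8%, and the efflux pumps Abcb1a and Abcg2 were each in 87.5%. In the other nuclei these genes were in 0.962% to 6.38%. Mfsd2a, which carries lysophosphatidylcholine and marks capillaries, was in 42.7% and was seen in 8 of 10 mice. The insulin receptor Insr was in 70.8% and Igf1r, the IGF1 receptor, in 99%, against 24.1% and 27.6% of the other nuclei. Lepr, the leptin receptor, had 7 UMIs in all, in 6.25% of the nuclei against 6.05% of the others, which are similar shares.

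Genes of the vessel segments were seen in different numbers. Of 17 capillary and vein genes, 11 had a UMI in at least 20% of the nuclei. Car4, a carbonic anhydrase of capillary endothelium, was in 83.3%, the transferrin receptor gene Tfrc in 56.2%, Vwf in 46.9% and Nr2f2 in 40.6%, against 0.566%, 10.4%, 1.59% and 11.7% of the other nuclei, and Selp had 0 UMIs. Of 21 Notch and artery genes, 5 reached 20%: Mgp (57.3%), Notch1 (52.1%), Jag1 (27.1%), Gja4 (24.0%) and Hes1 (21.9%), which were in 0.297% to 2.44% of the other nuclei. Sox17 was in 18.8%, Sema3g in 8.33% and Bmx in 7.29%. Gkn3 was found in 2.08% of the nuclei, all from 1 mouse, and Dll1 had 0 UMIs. Of the 13 genes of the fenestrated list that the table holds, 8 reached 20%, among them Nostrin (80.2%), Kdr (56.2%), Gsta4 (45.8%) and Cav1 (35.4%), which were in 0.487% to 6.47% of the other nuclei. Plvap, the diaphragm protein of fenestrae, had 2 UMIs in all and was lower than in the other nuclei (4.98 against 14.3 CPM), Esm1 had 1 UMI and Apln was in 2.08%.

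Regulators of barrier identity were also detected. The Wnt effector Lef1 was in 68.8%, and Foxf2 and Foxq1 were in 36.5% and 16.7%, with ratios over the other nuclei of 1228 and 1303. The ETS factors Erg and Ets1 were in 69.8% and 66.7%, the hypoxia-inducible factor Epas1 in 89.6% and Mecom in 93.8%. From the BMP and TGF-beta pathway the co-receptor Eng was in 79.2% and the target gene Id3 in 91.7%. Of the receptors for VEGF and angiopoietin, Flt1 was in every nucleus, Tek in 77.1%, Kdr in 56.2% and Tie1 in 33.3%. In the other nuclei Tek was in 22.9%, and the remaining genes of this paragraph were in 0.0124% to 6.35%.

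Transcripts of FGF receptors were scarce in these nuclei. Fgfr2 had 69 UMIs (172 CPM, against 376 in the other nuclei), Fgfr1 23 UMIs (57.3 against 53.5 CPM) and Fgfr3 7 UMIs. Fgfr4 had 0 UMIs, and so did Klb, which was listed with the FGF receptors and ligands. Of 23 feedback genes of the MAPK pathway, through which FGF receptors signal, 19 had a UMI, with 413 UMIs together. In at least 20% of the nuclei 7 were seen, and 2 of them were at least 10 times as high as in the other nuclei. Dusp6, an ERK phosphatase, had 36 UMIs, Spry2 26 and Spry1 22. None of the 8 genes named in this paragraph passed the filter for a treatment test.

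The share of endothelial nuclei did not separate the treatments. By mouse it ran from 0.267% to 0.769% in the FGF1 mice and from 0.065% to 0.861% in the vehicle mice. Both the highest and the lowest share belonged to the Day 5 vehicle mice, and the FGF1 mice lay between them. The mean was 0.489% ± 0.208 (SD, n = 5) with FGF1 and 0.499% ± 0.322 (SD, n = 5) with vehicle, and an exact two-sided permutation test within days gave p = 0.967, with 0.0167 the smallest that 120 relabelings allow. On Day 1 the difference was 0.0356 percentage points (exact permutation p = 0.9, smallest possible 0.1) and on Day 5 it was -0.0767 points (exact permutation p = 1.0, smallest possible 0.333). The counting error of a single mouse was wide: the 2 nuclei of replicate 28 give a 95% Clopper-Pearson interval of 0.00787% to 0.235%. With non-neuronal nuclei as the denominator the difference over both days turned to 0.253 points in favour of FGF1 (exact permutation p = 0.75).

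**Figure D3:**
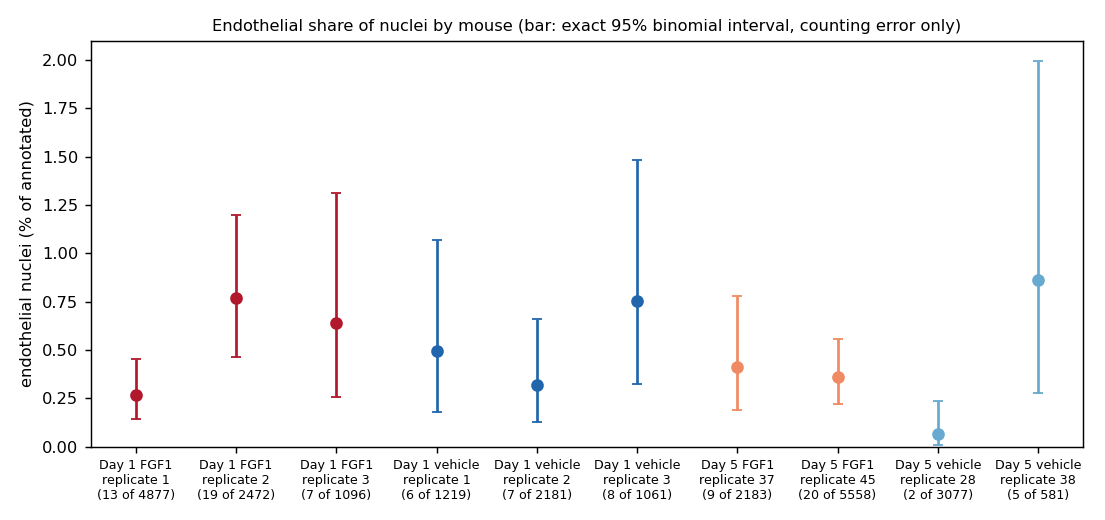
Endothelial nuclei as a percentage of all annotated nuclei (y axis) in each of the 10 mice (x axis, with the counts). Vertical bars are exact 95% binomial intervals, which cover counting error only. The intervals of FGF1 and vehicle mice overlap on both days, and replicate 28 (0.065%) is the lowest.

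For the treatment, UMIs of the endothelial nuclei were summed per mouse (pseudobulk) and tested with edgeR's quasi-likelihood method, and values below are CPM scaled by TMM. A sum per mouse cannot tell fewer cells of a type from less RNA per cell. On Day 1, 574 genes passed the filter on low counts and 0 (0.0%) were called at an adjusted p below 0.05. By DESeq2 the number was 1, Trpm3. At an unadjusted p below 0.05 there were 31 genes (5.4%), 11 higher and 20 lower with FGF1. The FGF1 and vehicle mice did not overlap for 70 of the 574 genes (12.2%). The genes described first are the 10 with the smallest unadjusted p among those 70, and edgeR called none of them.

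Ctla2a had the smallest p. It encodes a short protein related to the propeptide of cathepsin L that inhibits cysteine proteases. The gene lies at chr13:60934155-60936625 on the minus strand (GRCm38, GENCODE annotation), near its close relative Ctla2b at chr13:60895350-60897447, and 3′ reads of one may be counted for the other. On Day 1 Ctla2a stood at 7277, 3410 and 3843 CPM in the FGF1 mice and at 868, 2118 and 813 CPM in the vehicle mice. Every FGF1 mouse was above every vehicle mouse. The log2 difference was 1.84 ± 0.48 (SE), with an unadjusted p of 0.00209 and an adjusted p of 0.696 in edgeR. The transcript was in all 13, in 18 of 19 and in all 7 nuclei of the FGF1 mice, with a median of 19, 9 and 17 UMIs per nucleus. In the vehicle mice it was in 5 of 6, 6 of 7 and 8 of 8 nuclei, with medians of 3, 9 and 3. The highest single nucleus held 26.8% of the UMIs of FGF1 replicate 1 and 48% of those of vehicle replicate 1, and the high level was spread over most nuclei of each FGF1 mouse. On Day 5 Ctla2a was at 1058 and 1069 CPM in the FGF1 mice and at 892 and 594 CPM in the vehicle mice, the groups again apart but close. All 4 Day 5 values were below each Day 1 FGF1 value.

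Dlc1, which encodes a GTPase-activating protein, was at 1396, 1309 and 1516 CPM in the Day 1 FGF1 mice and at 452, 784 and 636 CPM in the vehicle mice. On Day 5 it was at 1225 and 1118 CPM against 793 and 849 CPM. The FGF1 mice were above the vehicle mice on both days. On Day 1 its log2 difference was 1.06 ± 0.31 (edgeR, adjusted p = 0.701).

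A further 4 genes had higher Day 1 values in each FGF1 mouse. Hspa8, a constitutive heat shock protein, was at 1337, 925 and 846 CPM against 104, 575 and 354 CPM (log2 difference 1.46 ± 0.50). The interferon-induced membrane protein gene Ifitm3 was at 1849, 1216 and 1199 CPM against 764, 889 and 460 CPM (0.93 ± 0.33). S100a11, a calcium-binding protein, was at 570, 436 and 423 CPM against 174, 235 and 212 CPM (1.11 ± 0.39). These 3 differed on Day 5: Hspa8 overlapped between the groups (473 and 887 CPM with FGF1, 992 and 382 CPM with vehicle), Ifitm3 overlapped too (779 and 1579 against 793 and 636 CPM), and S100a11 was lower in both FGF1 mice (195 and 255 against 297.5 and 297.0 CPM). Apbb2, an adaptor of the amyloid precursor protein, was at 531, 674 and 881 CPM against 347, 261 and 248 CPM on Day 1.

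Others had lower Day 1 values in each FGF1 mouse. Mark3, a kinase that acts on microtubule-associated proteins, was at 98.3, 132 and 35.3 CPM with FGF1 and at 417, 340 and 354 CPM with vehicle (-1.92 ± 0.59). Esyt2, which tethers the endoplasmic reticulum to the plasma membrane, was at 216, 370 and 247 CPM against 972, 549 and 849 CPM (-1.52 ± 0.44). The transcription factor gene Zbtb20 was at 1141, 1282 and 1128 CPM against 2535, 1935 and 1909 CPM (-0.91 ± 0.31). For Mark3 and Esyt2 the Day 5 values overlapped between FGF1 and vehicle.

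Trpm3, a cation channel gene at chr19:22139046-22995410, shows how few nuclei a value can rest on. It was at 256, 264 and 106 CPM in the Day 1 FGF1 mice and at 3438, 444 and 707 CPM in the vehicle mice, a log2 difference of -2.76 ± 0.70. Of the 99 UMIs of vehicle replicate 1, 95 were in 1 of its 6 nuclei. DESeq2 called the gene (adjusted p = 0.0240), as did edgeR with the batch as a block (adjusted p = 0.0102), and edgeR without it did not (adjusted p = 0.696). Without vehicle replicate 1 the log2 difference was -1.44 (edgeR, adjusted p = 0.843). The level in all other nuclei, 899 CPM, was above the pooled endothelial level of 572 CPM.

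**Figure D4:**
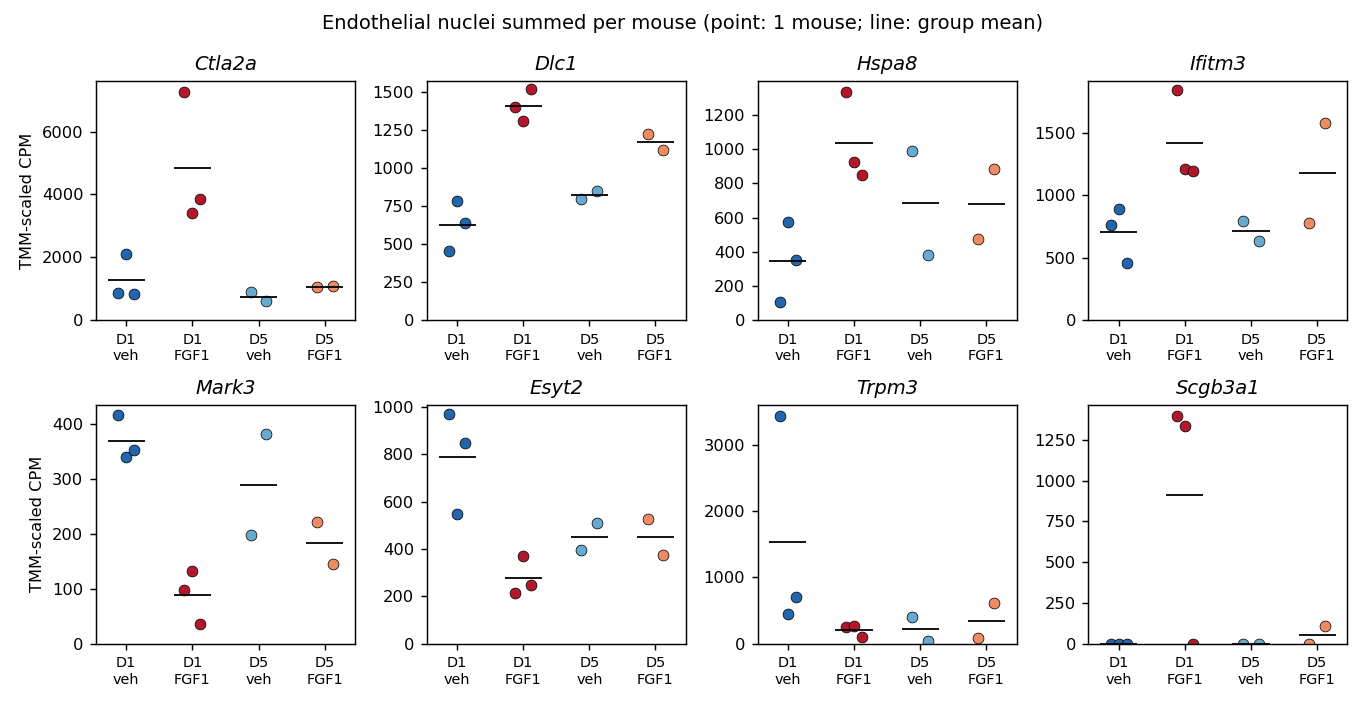
TMM-scaled CPM (y axis) of 8 genes in the endothelial nuclei summed per mouse, for Day 1 (D1) and Day 5 (D5), vehicle (veh) and FGF1. Points are mice and lines are group means. Ctla2a lies at 3410 to 7277 CPM in the Day 1 FGF1 mice and at or below 2118 in the other 7, and the high Trpm3 point at 3438 CPM comes mostly from 1 nucleus.

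Scgb3a1, a small secreted protein of the secretoglobin family (chr11:49663610-49665118), was present or absent by mouse. It had 71 and 101 UMIs in Day 1 FGF1 replicates 1 and 2, in 9 of 13 and 14 of 19 of their nuclei. It had 0 UMIs in the 7 nuclei of FGF1 replicate 3. On Day 5 it had 9 UMIs in 6 of the 20 nuclei of FGF1 replicate 45 and 0 in replicate 37. The 28 nuclei of the 5 vehicle mice had 0 UMIs. As counting error alone that allows a share of nuclei with a UMI of up to 10.7%, but nuclei of 1 mouse are not independent and expression below detection is not limited by it. The 3 mice with the transcript were all FGF1 mice and belong to 3 different batches. Outside the endothelial nuclei the same 2 Day 1 mice held 5 and 6 UMIs and the other mice 0. The gene did not pass the filter on low counts in either fit of the nuclei against vehicle. It was tested in 7 of the alternatives of Day 1, with adjusted p from 1.92e-05 to 0.993 (edgeR). It was called in 1 of them, the one without FGF1 replicate 3, which is the Day 1 FGF1 mouse with 0 UMIs. With no filter the Day 1 adjusted p was 0.801 (edgeR), and in the 2 alternatives of both days that tested it the adjusted p was 0.591 and 0.918. In cluster 3 of the whole cells it was seen in both groups, from 0 to 79.9 CPM in FGF1 mice and from 0 to 39.4 CPM in vehicle mice, with a log2 difference of 0.62 ± 0.60.

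Pericyte markers were at 49.0, 46.7 and 49.8 per 10000 UMIs in the FGF1 mice against 30.8, 51.9 and 32.3 in the vehicle mice. Red cell transcripts were at 35.6, 27.4 and 204 against 140, 14.9 and 59.2, and neuron markers at 13.8, 21.6 and 8.13 against 9.11, 25.7 and 27.3. These 3 sums overlapped between the groups. The astrocyte sum did not: it was at 12.8, 12.7 and 4.74 per 10000 in the FGF1 mice and at 13.3, 25.5 and 13.7 in the vehicle mice. On Day 5 it was at 11.2 and 23.7 against 5.82 and 13.3. The part of these sums in the Day 1 differences was not tested. With the nuclei above 64.7 pericyte UMIs per 10000 left out, the Ctla2a log2 difference was 2.52. That exclusion left 4 nuclei in vehicle replicate 2, which fell below the minimum of 5 and dropped out, and leaving out that mouse alone gave 2.43. Without the nuclei over 1% in red cell transcripts the difference was 1.54. There vehicle replicate 1 dropped out with 4 nuclei left, and leaving out that mouse alone gave 1.63. In both, the part of the removed nuclei beyond that of the lost mouse was not tested.

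Genes of the endothelial lists were centred near 0. The 14 lists (junctions, transporters, VEGF and angiopoietin receptors, Notch and artery, capillary and vein, fenestrated, caveolae, Wnt, transcription factors, BMP and TGF-beta, basement membrane, adhesion, lipid and insulin, and other endothelial genes) held 295 genes, of which 282 had a UMI and 84 were tested on Day 1. Their median log2 difference was 0.06, against -0.02 for all 574 genes. None was called, and 6 of the 84 (7.14%) had an unadjusted p below 0.05, near the 5.4% of all genes tested. Of these, Ctla2a and Cldn5 had higher estimates with FGF1, and the phospholipid transfer protein Pltp, the phospholipid flippase Atp10a, Cobll1 and the growth factor Pdgfd had lower ones.

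Cldn5 was at 2812, 1295 and 1375 CPM in the Day 1 FGF1 mice and at 1007, 889 and 1061 CPM in the vehicle mice (log2 difference 0.81 ± 0.37; edgeR, adjusted p = 0.701). On Day 5 it was lower in both FGF1 mice, at 863 and 632 against 1388 and 933 CPM. For the barrier genes Slc2a1, Abcb1a and Tjp1 the groups overlapped on Day 1. Slc2a1 was at 1475, 1190 and 1692 CPM with FGF1 and at 1007, 1909 and 1025 CPM with vehicle on Day 1 (0.03 ± 0.34). Abcb1a was at 590, 872 and 987 CPM against 1077, 758 and 530 CPM (-0.03 ± 0.34). Tjp1 was at 649, 1057 and 1375 CPM against 1146, 994 and 919 CPM (-0.09 ± 0.32). Pltp was at 354, 463 and 282 CPM against 695, 1098 and 566 CPM (-1.14 ± 0.43; edgeR, adjusted p = 0.701), with no overlap.

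Outside the endothelial lists, 63 of 81 ribosomal protein genes were tested on Day 1 with a median of 0.03, and 1 of them had an unadjusted p below 0.05. Of 28 reactive glia genes 4 were tested, too few to read a share from. Their median was 0.67, and S100a11 and Plat, the tissue plasminogen activator, had an unadjusted p below 0.05, as did 5.4% of all genes tested. No gene of the MAPK feedback or immediate early lists passed the filter. Dusp6, named after its values were seen, had 12, 7 and 5 UMIs in the Day 1 FGF1 mice and 1, 2 and 2 UMIs in the vehicle mice, which is 236, 92.5 and 176 CPM against 34.7, 52.3 and 70.7 CPM. Those groups did not overlap, and on so few UMIs the difference was not tested.

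Taking both days in 1 fit, with day as a term and the vehicle mouse with 2 nuclei left out, 656 genes were tested and 0 (0.0%) were called by edgeR, and 0 by DESeq2. At an unadjusted p below 0.05 there were 39 (5.95%), 22 higher and 17 lower, and 27 of the 656 (4.12%) had FGF1 and vehicle mice apart within each day in the same direction, among the 9 mice used. Ctla2a again came first, with a log2 difference of 1.64 ± 0.37 (edgeR, unadjusted p = 0.00046, adjusted p = 0.302). Dlc1 followed at 0.95 ± 0.25 (adjusted p = 0.543), then Mark3 at -1.57 ± 0.43 (adjusted p = 0.543). Ifitm3 was at 1.00 ± 0.30 and Hspa8 at 1.37 ± 0.42, and Pcca, a mitochondrial carboxylase subunit, at -1.20 ± 0.37, each with an adjusted p of 0.551. Among the genes next in p were Pltp (-0.93), the protease gene Adam10 (-1.10) and Crip1 (-0.86). Of the 90 endothelial list genes tested, 5 (5.56%) had an unadjusted p below 0.05, near the 5.95% of all genes, and the median of the 90 was 0.03, against 0.01 for all genes. Besides Ctla2a and Pltp these were Nrp1, the co-receptor for VEGF and semaphorins (edgeR, unadjusted p = 0.00988, adjusted p = 0.589), Ly6a (0.86 ± 0.33), whose near-identical relatives make its count uncertain, and Atp10a (-0.81 ± 0.26). Nrp1 was at 492, 661 and 846 CPM in the Day 1 FGF1 mice against 139, 288 and 495 CPM, and at 362 and 449 CPM on Day 5 against 0 and 127 CPM. The groups overlapped on Day 1 by a few CPM and stood apart on Day 5.

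S100a6, a calcium-binding protein gene, was below the filter, and is named because edgeR called it when no filter was applied to both days (adjusted p = 0.00386). It had 16, 31 and 8 UMIs in the Day 1 FGF1 mice and 9 and 14 in the Day 5 FGF1 mice. In the vehicle mice it had 0, 4 and 1 UMIs on Day 1 and 0 in both mice on Day 5. Scaled, the FGF1 mice lay between 170 and 410 CPM and the vehicle mice between 0 and 105 CPM, with no overlap. All 9 UMIs of Day 5 FGF1 replicate 37 were in 1 of its 9 nuclei, and 1 nucleus held 48.4% of those of Day 1 FGF1 replicate 2. Without the filter Ctla2a was called as well (adjusted p = 1.28e-06).

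On Day 5 alone the minimum of 5 nuclei left 1 vehicle mouse, so no test was made at that minimum. With both vehicle mice kept, at 2 and 5 nuclei, 503 genes were tested and 0 (0.0%) were called by edgeR, with 26 at an unadjusted p below 0.05. Of the 10 genes described first for Day 1, 8 were tested. The Day 5 log2 differences of Ctla2a (0.70), Dlc1 (0.64), Ifitm3 (0.92), Hspa8 (0.28) and Apbb2 (0.21) had the sign of Day 1. Those of Trpm3 (1.34), Zbtb20 (0.51) and Esyt2 (0.06) had the opposite sign, and Mark3 and S100a11 were not tested. The difference of the FGF1 effect between the days was tested by an interaction term over 656 genes. None (0.0%) was called by edgeR, 60 (9.15%) had an unadjusted p below 0.05, and DESeq2 called 1, the noncoding RNA Meg3. Over all 10 mice, 22 of the 656 genes (3.35%) had FGF1 and vehicle mice apart on each day in opposite directions. The 10 leading genes were, in order, Snhg11, Meg3, Cntnap2, Lrp1b, Cadm2, Tenm2, Ank2, 6330403K07Rik, Ptprd and Dgkb, of which Meg3 is one of the 4 neuron markers. Their estimates rest on the single Day 5 vehicle mouse with 5 nuclei, whose neuron marker sum was the lowest of all mice at 2.21 per 10000 UMIs, while the other Day 5 vehicle mouse had the highest at 53.3. With both mice kept 0 genes were called, and the Ctla2a interaction estimate was -0.90 with only replicate 38 (edgeR, adjusted p = 0.859).

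Whether endothelial nuclei differed from the rest of the tissue in their FGF1 effect was tested with both sums of each mouse in 1 fit. Of 12756 genes, 6 (0.047%) were called by edgeR and 0 by DESeq2, with 661 (5.18%) at an unadjusted p below 0.05. With RLE scaling 2 were called, and with only the 656 genes that pass the filter in the endothelial sums 0 were (smallest adjusted p 0.381, edgeR). The median of this difference over all genes was 0.33 in edgeR, 0.15 with RLE scaling and 0.05 in DESeq2, and each gene's value below includes that shift. Spp1, which encodes the secreted glycoprotein osteopontin, had the smallest p, with a difference of -3.80 ± 0.53 (edgeR, adjusted p = 1.68e-08). In the other nuclei it was at 73.8, 21.6 and 249 CPM in the Day 1 FGF1 mice against 2.04, 5.22 and 2.77 CPM in the vehicle mice. In the endothelial nuclei it was at 488, 204 and 203 CPM against 105, 591 and 280 CPM (unscaled CPM). On Day 1 the FGF1 mice stood apart in the other nuclei and overlapped the vehicle mice in the endothelial ones. On Day 5 the other nuclei had 0.805 and 2.26 CPM with FGF1 and 5.66 CPM with vehicle, so the high values belonged to Day 1. The endothelial nuclei had 27.9 and 70.6 CPM against 354 CPM that day. Tm4sf1, a tetraspanin-like membrane protein gene, had the same form (-2.36 ± 0.53): 69.4, 44.5 and 81.4 CPM against 8.33, 7.08 and 9.57 CPM in the other nuclei, and 325, 218 and 136 CPM against 666, 154 and 421 CPM in the endothelial nuclei. On Day 5 it was at 16.9 and 8.38 CPM against 6.42 CPM in the other nuclei and at 223 and 400.3 CPM against 532 CPM in the endothelial ones.

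The 4 remaining genes had positive differences. Mgp, an inhibitor of calcification, was at 2.21 ± 0.40 (edgeR, adjusted p = 0.000255). In endothelial nuclei it was at 936, 327 and 1288 CPM in the Day 1 FGF1 mice. The vehicle mice were at 771, 514 and 105 CPM there, so the groups overlapped. Single nuclei held 71.7% and 73.7% of the UMIs of FGF1 replicates 1 and 3. In the other nuclei Mgp was at 25.7, 5.13 and 45.2 CPM against 38.5, 29.0 and 37.5 CPM. The Day 5 values were 140 and 542 CPM against 221 CPM in endothelial nuclei, and 8.74 and 5.35 CPM against 40.8 CPM in the other nuclei. Arap3, a GTPase-activating protein gene of vascular cells (3.48 ± 0.79), was at 142, 259 and 271 CPM against 35.0, 25.7 and 0 CPM in endothelial nuclei, with no overlap on Day 1. It had 7, 19 and 8 UMIs against 1, 1 and 0 there. Its Day 5 values were lower in both FGF1 mice there, at 83.8 and 94.2 CPM against 133 CPM in the vehicle mouse used. In the other nuclei Arap3 was at 1.14, 1.19 and 1.17 CPM against 2.04, 2.61 and 3.02 CPM on Day 1. On Day 5 it was at 0.345 and 1.10 CPM against 2.27 CPM in those nuclei. Slc6a20a, a proline transporter gene (2.12 ± 0.49), was at 427, 122 and 67.8 CPM against 596, 283 and 386 CPM in endothelial nuclei on Day 1. In the other nuclei it was at 0.488, 0.955 and 4.09 CPM against 15.2, 5.22 and 21.2 CPM. Its Day 5 values were 195 and 165 CPM against 133 CPM in endothelial nuclei, the direction opposite to Day 1. In the other nuclei they were 3.56 and 2.13 CPM against 10.2 CPM. In endothelial nuclei Fam101b (3.51 ± 0.83) had 1, 7 and 6 UMIs against 2, 0 and 0 on Day 1. On those UMIs it was at 20.3, 95.3 and 203 CPM against 70.1, 0 and 0 CPM that day. On Day 5 it was at 168 and 106 CPM against 44.3 CPM. In the other nuclei it was at 4.07, 2.86 and 4.67 CPM against 5.00, 3.98 and 19.4 CPM on Day 1. The Day 5 values there were 3.45 and 3.16 CPM against 6.04 CPM. Neither Arap3 nor Fam101b passed the filter in the endothelial sums alone. The calls against the other nuclei rested on few mice. Without Day 1 vehicle replicate 3 only Spp1 was called, without Day 1 FGF1 replicate 1 or 2 only Spp1 and Mgp, and without Day 5 FGF1 replicate 45 only 3 (Spp1, Tm4sf1 and Arap3). The sizes moved too. The Spp1 difference was -2.93 without Day 1 FGF1 replicate 3. That of Fam101b was 4.88 without Day 1 vehicle replicate 1 and 2.44 without Day 1 vehicle replicate 3. The 10 genes next in p among those whose groups do not overlap, none of them called, were Npy, Airn, Syt11, Sult1a1, Hacd2, Supt16, Fam53a, Armcx3, Csrp1 and Gm12905.

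The whole cells of cluster 3 gave a second, larger set of endothelial-like cells from other mice on Day 5. Of 6329 genes, 60 (0.948%) were called by edgeR, 23 higher and 37 lower with FGF1, and 776 (12.3%) had an unadjusted p below 0.05. DESeq2 called 69, and edgeR with the batch as a term 112 (1.77%). The count was 19 to 29 without FGF1 replicate 6, 7, 10 or 21 or vehicle replicate 20 or 25, 91 without FGF1 replicate 36 and 143 without vehicle replicate 35. The title of that last sample spells its group FP where the other vehicle titles have PF, while its treatment text gives pair-feeding and PBS, and it was kept as vehicle. Of the 234 genes of the 14 endothelial lists tested there, 1 (0.427%) was called, against 0.948% of all genes. This gene, Ptprb, the vascular endothelial phosphatase, was at 578 to 832 CPM (median 804) in the 6 FGF1 mice and at 463 to 582 CPM (median 529) in the 6 vehicle mice, a log2 difference of 0.50 ± 0.12 (edgeR, adjusted p = 0.0271). It was not called without FGF1 replicate 6, 10 or 21 or vehicle replicate 20, 25 or 29 (edgeR, adjusted p from 0.0739 to 0.130). In the nuclei on Day 1 the same gene was at 354, 383 and 212 CPM with FGF1 and at 729, 497 and 389 CPM with vehicle (-0.76 ± 0.41; edgeR, adjusted p = 0.701).

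Astrocyte RNA moved with the groups in those whole cells. Slc1a2 and Slc4a4, an astrocyte glutamate and a bicarbonate transporter gene, fell by 0.72 and 0.76 on the log2 scale (edgeR, adjusted p = 0.0155 and 0.0160). Slc4a4 was not called without FGF1 replicate 10 or vehicle replicate 20 or 25 (edgeR, adjusted p from 0.0502 to 0.0587). All 8 astrocyte markers were tested there, with a median of -0.57, 6 of them lower and 1 higher at an unadjusted p below 0.05. Slc1a2 was at 533 to 949 CPM in the FGF1 mice and at 940 to 1689 CPM in the vehicle mice. The highest called estimates of cluster 3 were those of Lyz2, a lysozyme of myeloid cells (1.70), Meig1 (1.39), Gpr50, known from tanycytes (1.30), and Cfap126, a gene of motile cilia (1.29). Among the lowest were those of 2900052N01Rik (-1.96), Dact3 (-1.35) and F3, tissue factor (-1.28). Of 28 reactive glia genes 19 were tested and 5 (26.3%) called, against 0.948% of all genes, with Gfap, Vim, Tm4sf1 and S100a10 higher and Etnppl lower. The part of astrocyte RNA in the other results of cluster 3 was not tested.

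The genes described first for the Day 1 nuclei were followed in the whole cells, which are from Day 5. Ctla2a was at 762 to 1537 CPM (median 1000) in the FGF1 mice and at 493 to 990 CPM (median 792) in the vehicle mice, and was the higher with FGF1 in 5 of 6 batches. The groups overlapped. Its log2 difference was 0.54 ± 0.20 (edgeR, adjusted p = 0.283), and with the batch as a term 0.52 ± 0.12 (edgeR, adjusted p = 0.0206), which passes the threshold. Ifitm3 was at 1058 to 2493 CPM (median 1218) against 604 to 1298 CPM (median 755), higher with FGF1 in 6 of 6 batches, with a log2 difference of 0.71 ± 0.25 (edgeR, adjusted p = 0.259, and 0.00179 with the batch as a term). Without FGF1 replicate 6, its highest mouse, that difference was 0.46. Dlc1 (0.22 ± 0.14), Hspa8 (0.24 ± 0.12), Mark3 (-0.06 ± 0.17), Esyt2 (-0.22 ± 0.13), S100a11 (0.47 ± 0.14), Apbb2 (0.06 ± 0.13) and Zbtb20 (0.17 ± 0.11) were not called, and Trpm3 was not tested. The Dlc1 difference was 0.09 without FGF1 replicate 7, its highest mouse, and 0.14 without vehicle replicate 20, and that of Apbb2 was -0.02 without vehicle replicate 25. Of the 9 tested, Zbtb20 had the sign opposite to that of the Day 1 nuclei. Beside the nuclei of Day 5, the day of the whole cells, Zbtb20 had the same sign and Esyt2 the opposite one. S100a11 was lower in both FGF1 mice of those nuclei, which was not tested.

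**Figure D5:**
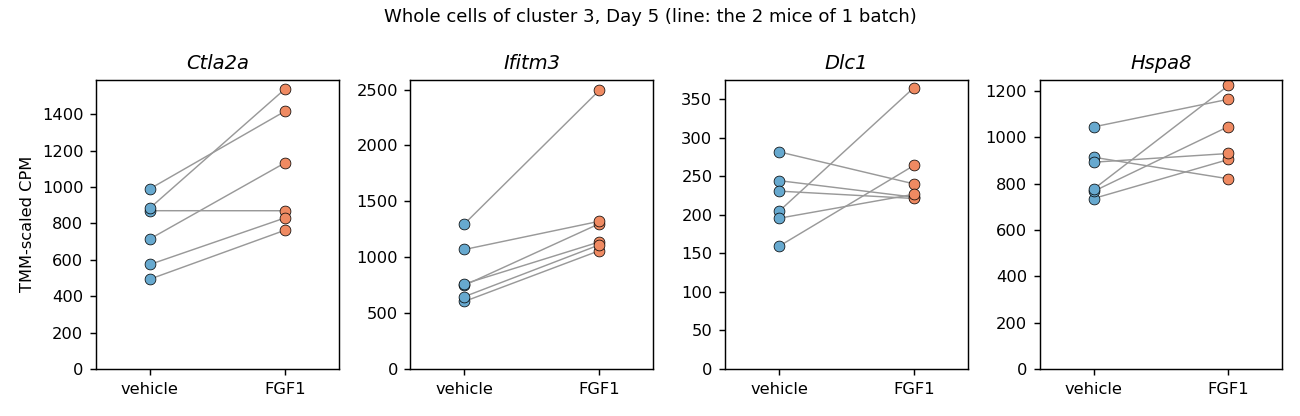
TMM-scaled CPM (y axis) of 4 genes in whole cells of cluster 3, Day 5, with each line joining the vehicle and FGF1 mouse of 1 of 6 batches. Ifitm3 is higher with FGF1 in 6 of 6 batches and Ctla2a in 5 of 6, while Dlc1 is higher in 3 of 6.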

How the data were processed

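Single-nucleus and whole-cell 3′ libraries were made on the 10x Chromium platform and, per the labels, processed with Cell Ranger and Seurat on GRCm38 (mm10). The deposited tables hold raw UMI counts per gene and nucleus (introns included) or cell, after the authors' filters on cells, and the authors' metadata give mouse, batch and cell type. Members were the nuclei labelled endothelial. Members and gene lists were chosen with earlier results of these data known.

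Raw UMIs were summed per mouse, for mice with at least 5 endothelial nuclei (10 cells for cluster 3 of the whole cells), filtered (filterByExpr), scaled by TMM and tested with edgeR 4.0.16 (quasi-likelihood, robust), with Benjamini-Hochberg adjustment over all genes tested and calls below 0.05. The study's own pseudobulk test, DESeq2 (1.42.0), was an alternative. The scripts were tested on simulated data. Shares were compared by exact permutation of mice. No doublet caller was run here, and for nuclei the study's methods name none. Intervals are Clopper-Pearson, and the limit of a 0 is 3 counts; both cover counting error only.

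Named genes were those called, or, under 10 calls, the 10 smallest unadjusted p among genes whose groups do not overlap (within each day, for both days), list genes with the highest level or an unadjusted p below 0.05, and the 25 highest ratios over other nuclei. Of the 60 calls of cluster 3 the 4 highest, 3 of the lowest and those of the lists are named, short of the 15 each way that the rule allows. Some genes the rule would name are not reported here. Each batch of nuclei held 1 FGF1 and 1 vehicle mouse, and replicate numbers did not mark batches. Coordinates are from GENCODE on GRCm38. The deposited normalized tables were not used here.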

Additional observations from a re-analysis of the deposited data

Results flagged for a closer look

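By the interaction test in edgeR, 6 genes were called as different between endothelial and all other nuclei in their FGF1 effect. They were Spp1 (log2 difference -3.80), Mgp (2.21), Arap3 (3.48), Slc6a20a (2.12), Tm4sf1 (-2.36) and Fam101b (3.51). The adjusted p ran from 1.68e-08 to 0.0494. DESeq2 called 0 genes, RLE scaling left 2 calls, and a test of only the 656 genes that pass the filter in the endothelial sums called 0, with a smallest adjusted p of 0.381. Arap3 and Fam101b were not among the 656, and both rest on few endothelial UMIs.

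Of the 24 genes picked by the treatment tests or by an unadjusted p below 0.05 in a list, 5 had FGF1 and vehicle mice apart on both days, over all 10 mice, but in opposite directions. Of all 656 genes tested over both days 22 did so (3.35%), while 11.4% were apart on Day 1 and 35.7% on Day 5, where 2 mice stood against 2. The 24 were picked in part for being apart between the groups, so their share cannot be set against that of all genes. Zbtb20 and Cobll1 were lower with FGF1 on Day 1 and higher on Day 5 (difference between days 1.35 and 1.89; edgeR, adjusted p = 0.412 for both). S100a11 (-1.37; edgeR, adjusted p = 0.585), Plat (-1.94; edgeR, adjusted p = 0.485) and Cldn5 (-1.06; edgeR, adjusted p = 0.670) were the reverse. None of the 5 interactions passed the threshold. Cobll1 was at 216, 304 and 212 CPM in the Day 1 FGF1 mice against 347, 601 and 530 CPM, and at 724 and 571 CPM on Day 5 against 99.2 and 382 CPM. Plat was at 767, 542 and 494 CPM on Day 1 against 382, 288 and 177 CPM, and at 83.5 and 328 CPM on Day 5 against 397 and 467 CPM.

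Among whole cells of cluster 3, a Day 5 FGF1 mouse lay far from the other 5 for each of 6 genes, and it was not the same mouse throughout. FGF1 replicate 7 was highest for Dlc1 (365 CPM, with the next mouse at 264 CPM) and Nrp1 (458 CPM, next 249 CPM). Replicate 21 was highest for Mark3 (88.1 CPM, next 63.7 CPM), replicate 6 for Ifitm3 (2493 CPM, next 1321 CPM) and replicate 28 for Cldn5 (1890.0 CPM, next 995 CPM). Replicate 36 was lowest for Zbtb20 (724 CPM, next 823 CPM). For Cldn5 vehicle replicate 22 stood out too, at 2757 CPM with the next at 1190 CPM. In all, 48 groups were looked at in this way and 7 stood out. The cut-off marks about 1 in 20 only for independent, normally distributed values. These groups share the same mice, so the 7 cannot be set against that rate.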

How the results depend on the processing

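With 2 to 20 nuclei per mouse, depth limits every test: 574 genes could be tested on Day 1, and a miss does not show that levels were equal. The 0 Day 1 calls became 1 with DESeq2, 3 without the filter (Ctla2a, Trpm3 and Acta2, the last from 1 nucleus), 1 with the batch as a block, and 0 to 1 with each mouse left out. With the replicate block it stayed 0. Same-numbered mice correlated at -0.20, -0.16 and -0.01 in their deviations from the group means, so the numbers pair nothing. Mice of the same batch correlated at -0.22, -0.16 and -0.26, and pairs sharing neither at 0.40, 0.30 and 0.30. Both days gave 2 calls without the filter. Day 5 could be tested only with 1 nucleus as the minimum (0 calls). The interaction between days gave 1 call with DESeq2 and 0 to 4 with a mouse left out. The 6 calls against other nuclei became 2 with RLE scaling, 0 with DESeq2, 0 with genes that pass the filter in endothelial sums, and 1 to 7 with a mouse left out. The 60 calls of cluster 3 became 136 without the filter, 112 (49 higher, 63 lower) with the batch as a term, and 19 to 143 with a mouse left out. Causes were not tested.

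The share difference over both days (-0.00936 points) was 0.253 with non-neuronal nuclei as the denominator and -0.121 to 0.123 with a mouse left out. On Day 1 it was -0.0698 to 0.181, and on Day 5 -0.475 to 0.321. The neuron marker difference of 0.845 per 10000 was -0.0416 without Meg3. Of the genes named in the Day 1 fit, 149 values kept their side of the threshold and 4 passed it; over both days 161 and 1; between days 82 and 7; against other nuclei 139 kept it and 41 lost it. None changed sign. Alternatives chosen after seeing the data were the Day 1 batch block, the red cell and pericyte exclusions, the settings of both interaction fits, and leaving out each mouse in cluster 3. A minimum of 10 nuclei left no vehicle mouse and was not run, nor were the other Day 5 alternatives, with 1 vehicle mouse at the minimum of 5, or the interaction without that mouse. A group left with 1 mouse was assumed to vary like the others.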
